A study of Mus musculus with 40 samples.

Results

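The p53 family in mouse consists of the transcription factors p53 (Trp53), p63 (Trp63) and p73 (Trp73), and its best known regulators are Mdm2 and Mdm4. All probe sets that the array annotation pairs with these 5 genes were taken, whatever their values. This gave 13 probe sets for 4 of the genes, of 45037 tested on the array: 4 for Trp63, 2 for Trp73, 3 for Mdm2 and 4 for Mdm4. The annotation used here pairs no probe set with Trp53, so the transcript of the targeted gene was not analysed here and could not serve as a check of the genotype labels.

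Signals came from 40 arrays in 5 groups. There were 2 early biopsy lines and 11 cell lines of p53 R172H CKO gliomas, 11 p53 R172H CKO gliomas, 11 p53 null CKO gliomas and 5 normal cortices. Lines and gliomas of the R172H model carried hGFAP-cre+;p53LSLR172H/floxE2-10, which pairs a Cre-activated missense allele with a floxed allele. The null gliomas carried hGFAP-cre+;p53floxE2-10/floxE2-10. Of the cortices, 3 were hGFAP-cre+;p53floxE2-10/+ and 2 were hGFAP-cre-;p53floxE5-6/floxE5-6, so every cortex carried a floxed p53 allele and 3 of them a Cre transgene as well. The human GFAP promoter drives Cre in neural progenitors and their progeny, so that blood-derived and endothelial cells of a glioma keep their unrecombined alleles. The lines were grown as spheres in a neural stem cell medium with growth factors, and the early biopsy lines came from biopsies guided by magnetic resonance imaging at an early stage. Nothing in the labels says that the arrays of a group came from separate animals, and the p-values therefore measure the spread between these samples.

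p53 is activated by DNA damage and oncogene signalling and switches on genes for cell cycle arrest, repair and death. Mdm2, a ubiquitin ligase, marks p53 for degradation and is itself a p53 target, which closes a negative feedback loop. Mdm4 binds Mdm2 and masks the transactivation domain of p53. In mouse, Cdkn2a encodes p19Arf, which sequesters Mdm2, in addition to the cyclin-dependent kinase inhibitor p16Ink4a. p63 is required for stratified epithelia. p73 is made in full-length and N-terminally truncated forms from separate start sites and, in the mouse brain, is known from Cajal-Retzius neurons and multiciliated ependymal cells.

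The start region of Mdm2 is shown because Mdm2 was the member with the most differences, and both annotated start regions of Trp73 because its signal stood out on a single array. Each run holds 250 bases before to 50 after a start site, from RefSeq (GRCm38.p6), 5′ to 3′ on the minus strand. Capitals mark matches on either strand to the E2F motif TTTNNCGC, the GC box GGGCGG or the p53 half-site.
Mdm2, chr10:117710709-117711008: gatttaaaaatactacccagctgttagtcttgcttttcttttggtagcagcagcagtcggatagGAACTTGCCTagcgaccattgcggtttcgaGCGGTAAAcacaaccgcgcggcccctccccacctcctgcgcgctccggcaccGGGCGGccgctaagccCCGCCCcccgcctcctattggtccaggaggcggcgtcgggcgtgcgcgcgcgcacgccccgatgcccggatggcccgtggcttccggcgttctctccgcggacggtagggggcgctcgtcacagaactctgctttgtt
Trp73, upstream start, chr4:154139826-154140125: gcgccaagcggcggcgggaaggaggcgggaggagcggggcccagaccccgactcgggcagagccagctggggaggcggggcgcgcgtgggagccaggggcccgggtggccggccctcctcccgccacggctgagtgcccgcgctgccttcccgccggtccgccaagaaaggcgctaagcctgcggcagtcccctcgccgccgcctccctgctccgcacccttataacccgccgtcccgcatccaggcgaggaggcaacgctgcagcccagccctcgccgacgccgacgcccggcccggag
Trp73, internal start, chr4:154097124-154097423: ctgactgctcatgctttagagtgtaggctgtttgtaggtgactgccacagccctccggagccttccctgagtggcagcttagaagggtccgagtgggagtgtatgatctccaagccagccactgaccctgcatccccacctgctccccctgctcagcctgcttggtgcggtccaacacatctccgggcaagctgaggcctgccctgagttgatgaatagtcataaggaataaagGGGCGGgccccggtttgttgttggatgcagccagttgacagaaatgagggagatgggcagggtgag
The Mdm2 region held 1 E2F match, 2 GC boxes and 1 p53 half-site and had 64.7% G and C, against a median of 52.7% over 32851 start regions. The internal Trp73 region held 1 GC box, and the upstream one held none of these motifs at 77.7% G and C. Of all start regions, 5.17% held the E2F motif, 35.7% the GC box and 8.36% the p53 half-site. TATAAA, also searched, was in 13.6% of them and in none of the 3 shown. The matches do not overlap each other, and a match describes letters, not a bound site.

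The deposited values are robust multi-array averages, read here as log2 from their range of 2.00 to 14.5. On a log2 scale a difference of 1 means a 2-fold change. Detectability differed between members. Mdm2 1423605_a_at, Mdm2 1427718_a_at and Mdm4 1460542_s_at lay above the median of the array on all 40 arrays, whereas the 4 Trp63 probe sets lay below it on all of them. Array medians ran between 5.24 and 5.47, and a signal under the median cannot be told from a gene that is silent. Levels of different probe sets were not compared with each other.

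Cell composition differed between the groups and is given here once for all results. The mean of 13 neuron markers spanned 4.29 to 6.11 in the R172H lines, 4.84 to 11.09 in R172H gliomas and 4.56 to 10.73 in null gliomas, against 11.05 to 11.59 in cortex. The 3 neuron-rich gliomas were array 58 of the R172H group and arrays 38 and 45 of the null group, at 11.09, 10.73 and 10.66; no other glioma exceeded 8.86. The study noted normal tissue by histology in an R172H primary tumour before array analysis, and the labels do not tie that tumour to an array. The mean of 13 cell cycle markers spanned 7.55 to 10.56 in lines, 6.43 to 10.79 in R172H gliomas and 6.57 to 10.43 in null gliomas, against 4.89 to 5.07 in cortex. The mean of 14 microglia and macrophage markers was 4.04 to 4.75 in lines, with 10 of them below the array median on every line, 8.10 to 10.34 in R172H gliomas, 8.39 to 10.42 in null gliomas and 7.48 to 8.18 in cortex. In bulk samples, fewer cells of a type and less RNA per cell cannot be told apart. Array numbers also followed the groups, with 30 to 34 in cortex, 35 to 45 in null gliomas and 46 to 69 in the R172H samples, so array order cannot be told apart from the difference between cortex, null and R172H samples. R172H gliomas (46 to 67) and R172H lines (47 to 68) were interleaved.

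Mdm2 was higher in gliomas of both genotypes and in the glioma lines than in cortex. On 1423605_a_at the signal was 8.77 to 9.67 in R172H gliomas (median 9.28, n = 11) and 8.65 to 9.67 in null gliomas (median 9.24, n = 11), against 8.60, 8.74, 8.74, 8.79 and 8.88 in the 5 cortices. All but 1 of the R172H gliomas, array 58, and 9 of 11 null gliomas lay above every cortex. The difference from cortex was 0.54 ± 0.15 (SE) in R172H gliomas, a 1.46-fold level (limma, adjusted p = 0.00326), and 0.45 ± 0.15 in null gliomas, 1.37-fold (adjusted p = 0.0141). The R172H lines spanned 8.62 to 9.56 with a median of 9.07, and 9 of 11 lay above every cortex. Their difference from cortex was 0.38 ± 0.15 (adjusted p = 0.0323).

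The second bright Mdm2 probe set, 1427718_a_at, differed from cortex in the same direction, though the groups overlapped. It read 7.12 to 8.12 in R172H gliomas (median 7.73) and 7.03 to 8.57 in null gliomas (median 7.91), against 7.15, 7.20, 7.21, 7.34 and 7.35 in cortex. In each genotype 10 of 11 gliomas lay above every cortex and 1 lay below every cortex, array 58 in the R172H group and array 38 in the null group. The null gliomas differed from cortex by 0.64 ± 0.16 (1.56-fold, adjusted p = 0.00172), the R172H gliomas by 0.47 ± 0.16 (adjusted p = 0.0172) and the lines, at 7.22 to 8.27, by 0.46 ± 0.16 (adjusted p = 0.0197). The third Mdm2 probe set, 1457929_at, was below the array median on every array and read 3.33 to 4.07. None of its differences passed.

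The Mdm2 calls depended in part on normalization and, in lines, on the cortices used. After cyclic loess across arrays, 1423605_a_at no longer passed in any comparison with cortex, with differences of 0.28 in R172H gliomas (adjusted p = 0.11), 0.24 in null gliomas (adjusted p = 0.18) and 0.02 in lines (adjusted p = 0.92). On 1427718_a_at the null glioma difference passed under all 14 alternatives, with the adjusted p reaching 0.0339, whereas the R172H glioma and line differences after cyclic loess were 0.29 (adjusted p = 0.12) and 0.17 (adjusted p = 0.38). The line difference on 1423605_a_at was also lost on leaving out the cortex of array 31, 32 or 33 (adjusted p = 0.058, 0.058 and 0.084). The line differences of these probe sets did not both pass with the Cre-positive cortices alone, nor with the Cre-negative cortices alone.

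**Figure D1:**
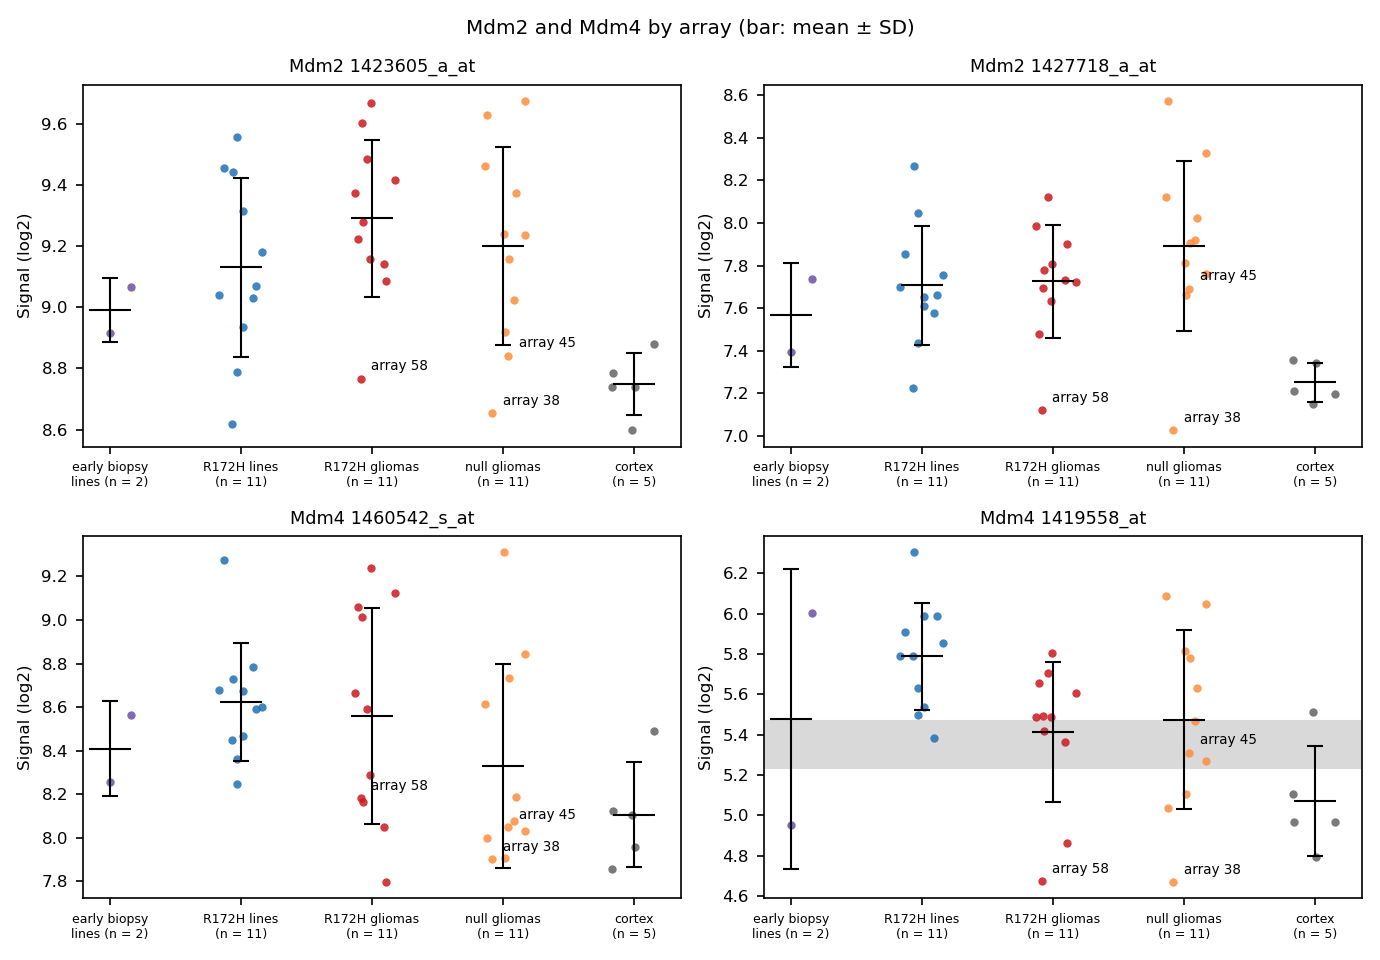
Signal (log2) of 2 Mdm2 and 2 Mdm4 probe sets on each of 40 arrays, 1 point per array, by group; bars are the mean ± SD, grey is the range of the array medians, and the neuron-rich gliomas of arrays 38, 45 and 58 are named. On both Mdm2 probe sets most gliomas and lines sit above all 5 cortices, and arrays 38 and 58 sit among or below the cortices.

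On 1423605_a_at the 3 lowest Mdm2 signals among gliomas came from the neuron-rich ones, with 8.65 on array 38, 8.77 on array 58 and 8.84 on array 45, within the cortex range of 8.60 to 8.88. On 1427718_a_at array 45, at 7.69, lay above every cortex. Leaving out these 3 arrays, the lowest gliomas on 1423605_a_at, could only raise the difference from cortex on 1423605_a_at. That difference was then 0.59 in R172H and 0.55 in null gliomas. Over the remaining 19 gliomas, Mdm2 on 1423605_a_at had a Pearson r of -0.44 with the neuron marker mean (permutation p = 0.058, adjusted p = 0.66 over 12 relations) and a Spearman rho of -0.42 (permutation p = 0.071, adjusted p = 0.79). Leaving out the 2 gliomas with the most extreme marker means gave r = -0.43, and r was -0.44 within the 10 R172H gliomas (permutation p = 0.21) and -0.49 within the 9 null gliomas (exact permutation p = 0.18), all two-sided. None of the 12 relations of the Mdm2 and Mdm4 probe sets with neuron, cell cycle or microglia markers passed the adjustment (lowest adjusted p = 0.66), so no relation was shown over these 19 gliomas. The 3 neuron-rich arrays were not part of these tests.

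**Figure D2:**
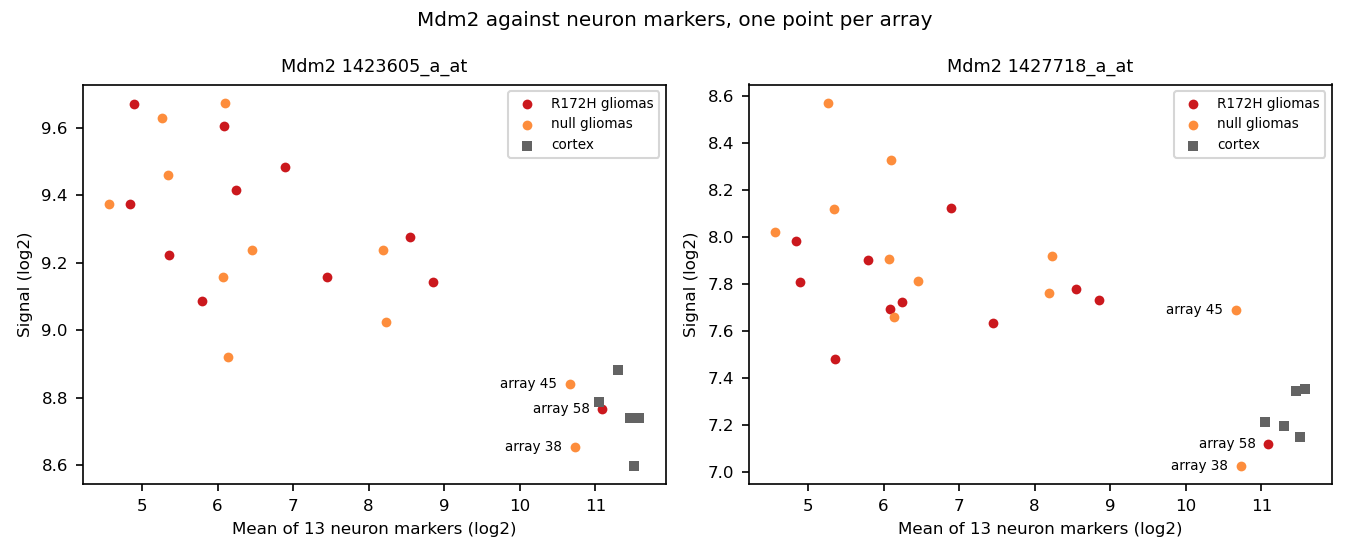
Mdm2 signal (log2) against the mean of 13 neuron markers (log2), 1 point per array, for R172H gliomas, null gliomas and cortex. Arrays 38, 45 and 58 lie near the cortices on the marker axis, and on 1423605_a_at they also lie within the cortex range of 8.60 to 8.88 on the Mdm2 axis.

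Mdm4, the partner of Mdm2, passed mainly in the lines. On 1419558_at, which lies near the array median, the lines read 5.38 to 6.30 (median 5.79, n = 11) against 4.79, 4.96, 4.97, 5.11 and 5.51 in cortex. Of the lines 9 lay above every cortex, and the difference was 0.72 ± 0.20 (1.65-fold, adjusted p = 0.0027), which did not pass against the 2 Cre-negative cortices alone (adjusted p = 0.157). R172H gliomas spanned 4.67 to 5.80 and null gliomas 4.67 to 6.08 on this probe set, with differences from cortex of 0.34 (95% interval -0.05 to 0.74, adjusted p = 0.16) and 0.41 (0.01 to 0.80, adjusted p = 0.10). Without the neuron-rich arrays, of which array 38 was the lowest null glioma here, the null glioma difference was 0.51 (adjusted p = 0.0199).

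The brightest Mdm4 probe set, 1460542_s_at, has the suffix that Affymetrix gives to probes shared by several transcripts. It read 8.25 to 9.27 in lines (median 8.60), 7.80 to 9.24 in R172H gliomas (median 8.59) and 7.90 to 9.31 in null gliomas (median 8.08), against 7.86, 7.96, 8.10, 8.12 and 8.49 in cortex. The groups overlapped in every comparison. The lines differed from cortex by 0.52 ± 0.21 (adjusted p = 0.0453), a call that was lost on leaving out any 1 of 4 of the cortices (adjusted p up to 0.12) and after cyclic loess (0.19, adjusted p = 0.51). The R172H gliomas differed from cortex by 0.46 (adjusted p = 0.085) and the null gliomas by 0.23 (adjusted p = 0.43). The dim probe set 1453982_at passed in R172H gliomas alone among these, at 3.48 to 4.22 against 3.31 to 3.59 in cortex, with a difference of 0.28 ± 0.11 (adjusted p = 0.039). Leaving out array 50 or any 1 of 4 cortices ended that call (adjusted p = 0.0585 without array 50). The fourth Mdm4 probe set, 1458223_at, spanned 4.43 to 5.29 over all arrays and passed in no comparison.

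Counted over all 13 probe sets, the members passed about as often as the array as a whole. In null gliomas against cortex 2 of 13 were higher and 2 lower, where 18.7% of all probe sets were higher and 19.2% lower. In R172H gliomas against cortex 3 were higher and 1 lower, with 20.9% and 21.1% of all probe sets. In lines against cortex 4 were higher and 1 lower, with 26.1% and 20.3% of all. These 3 comparisons share the same 5 cortices. The median difference of the members was 0.03, 0.03 and 0.06 in this order of comparisons, beside 0.00, 0.00 and 0.06 over all probe sets.

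Between the genotypes no member passed. In R172H gliomas against null gliomas 0.00444% of all probe sets were higher and 0.0222% lower, 2 and 10 probe sets. At an unadjusted p under 0.05 limma gave 2 of the 13 members as higher and 0 as lower, Trp63 1418158_at (0.29, adjusted p = 0.39) and Mdm4 1453982_at (0.19, adjusted p = 0.41), both below the array median. For Mdm2 the difference between R172H and null gliomas was 0.09 on 1423605_a_at (95% interval -0.15 to 0.33) and -0.17 on 1427718_a_at (-0.43 to 0.09). For Mdm4 it was 0.23 on 1460542_s_at (-0.11 to 0.57) and -0.06 on 1419558_at (-0.37 to 0.25).

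Explanted lines were set against the R172H gliomas to ask what changed in culture, where microglia markers were at the low levels given above. One member passed, as 1 higher and 0 lower of 13, beside 6.13% of all probe sets higher and 3.97% lower. This was Trp63 1451876_a_at, at 4.81 to 5.13 in lines against 4.53 to 5.01 in R172H gliomas, a difference of 0.19 ± 0.06 (adjusted p = 0.0333) at a level below the array median. It was lost in a model of these 2 groups alone (adjusted p = 0.077), after cyclic loess (adjusted p = 0.26) and with trend and robust moderation (adjusted p = 0.065). The Mdm2 probe sets differed by -0.16 (95% interval -0.40 to 0.08) and -0.02 (-0.28 to 0.24), and Mdm4 1419558_at by 0.37 (0.06 to 0.69, adjusted p = 0.12). By the study's methods each R172H glioma had a line derived from it, but the labels do not say which. The p-values of this comparison therefore treat linked arrays as independent.

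The 2 early biopsy lines read 8.92 and 9.07 for Mdm2 on 1423605_a_at, inside the 8.62 to 9.56 of the 11 end-stage lines. For Mdm4 on 1419558_at they read 4.95 and 6.00, so that 1 of them lay below every end-stage line, at 5.38 to 6.30. No probe set of the array passed in this comparison, with 0% called higher and 0% lower. At an unadjusted p under 0.05 there were 872 higher and 792 lower over the array. Of the 13 members 1 was higher, Mdm4 1453982_at, at 4.01 and 4.09 against an end-stage median of 3.69. Both lay above every end-stage line, but the lower of them only narrowly, at 4.01138 against 4.00052 in the highest line. This probe set was below the array median on every array. How many probe sets of the array separate these lines in the same way was not counted. With 2 arrays the intervals are wide, for example -0.57 to 0.29 for Mdm2 on 1423605_a_at.

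**Figure D3:**
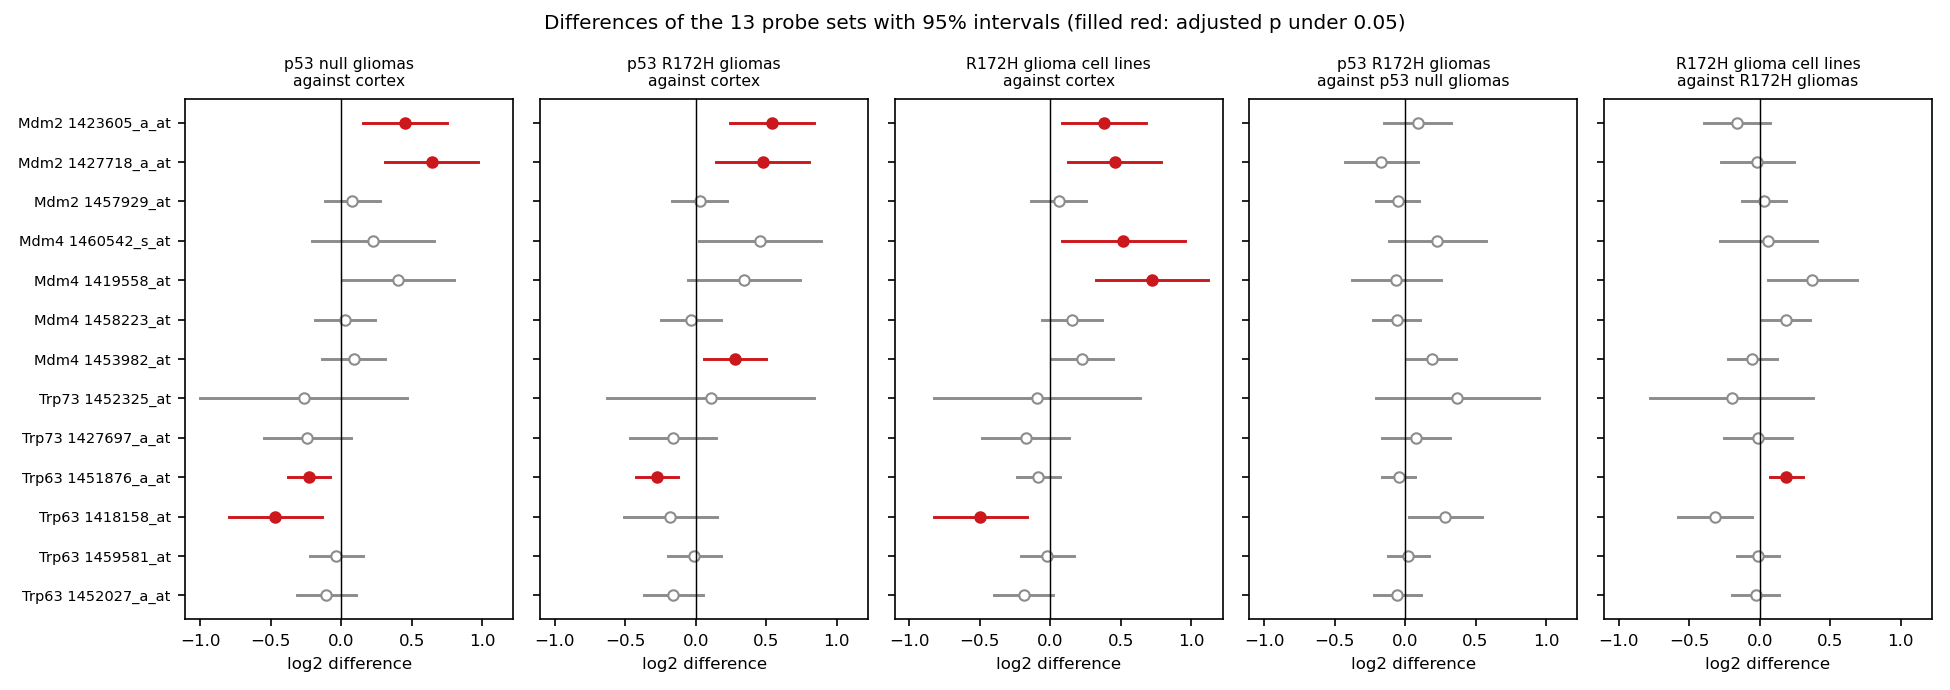
Log2 difference of each of the 13 probe sets in 5 comparisons, the first-named group minus the second; lines are 95% intervals from limma and filled red points have an adjusted p under 0.05. The 2 upper Mdm2 probe sets are to the right of 0 in all 3 comparisons with cortex, and no point is filled between R172H and null gliomas.

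Trp63 signals were low throughout. Its 4 probe sets read 2.79 to 5.23 over all arrays and never exceeded an array median. The basal epithelial markers that usually accompany p63 were also low, with means of 4.04 to 4.44 in every glioma and line and 4.15 to 4.36 in cortex. On 1418158_at lines (3.46 to 4.23) and null gliomas (3.59 to 4.42) were below cortex (4.01 to 4.72) by 0.50 (adjusted p = 0.0113) and 0.47 (adjusted p = 0.021). R172H gliomas did not pass on it, with a difference of -0.18 (limma, adjusted p = 0.389). On 1451876_a_at R172H gliomas (4.53 to 5.01) and null gliomas (4.70 to 5.02) were below cortex (4.80, 5.10, 5.17, 5.17 and 5.23) by 0.27 (adjusted p = 0.00311) and 0.23 (adjusted p = 0.0137). Here the lines did not pass, with a difference of -0.085 (limma, adjusted p = 0.367), so the 2 probe sets differed in which groups passed. The 2 other Trp63 probe sets, 1452027_a_at (2.79 to 3.72) and 1459581_at (3.16 to 3.88), passed in no comparison. On 1418158_at the null glioma call was lost without the cortex of array 30 or 34 (adjusted p = 0.056 and 0.096) and the line call without array 34 (adjusted p = 0.060), and on 1451876_a_at the null glioma call was lost without array 31 (adjusted p = 0.059). Against the 2 Cre-negative cortices alone the 1451876_a_at differences of R172H and null gliomas were -0.17 (adjusted p = 0.27) and -0.12 (adjusted p = 0.46).

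Trp73 was high on 1 array and low on the others. Of 40 arrays, 1452325_at exceeded the array median on 2 and 1427697_a_at on 1. On 1452325_at the R172H glioma of array 50 read 8.67. The 10 other R172H gliomas read 4.24 to 5.33, the lines 4.54 to 5.03, the null gliomas 4.50 to 5.01 and the cortices 4.50, 4.67, 5.08, 5.12 and 5.17. The same array was the highest on the second Trp73 probe set, 1427697_a_at, at 5.36, where the other 39 arrays read 3.68 to 4.42. The level on array 50 exceeded the median of the 21 other gliomas by 4.10 on 1452325_at and by 1.42 on 1427697_a_at. Ranked by this difference among 45037 probe sets, from the highest, 1452325_at was number 91 and 1427697_a_at number 1687. As the other gliomas lay near or below the array median, where a signal cannot be told from silence, these differences set no fold change. Array 50 is a single tumour sample, and it was singled out after its values had been seen.

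**Figure D4:**
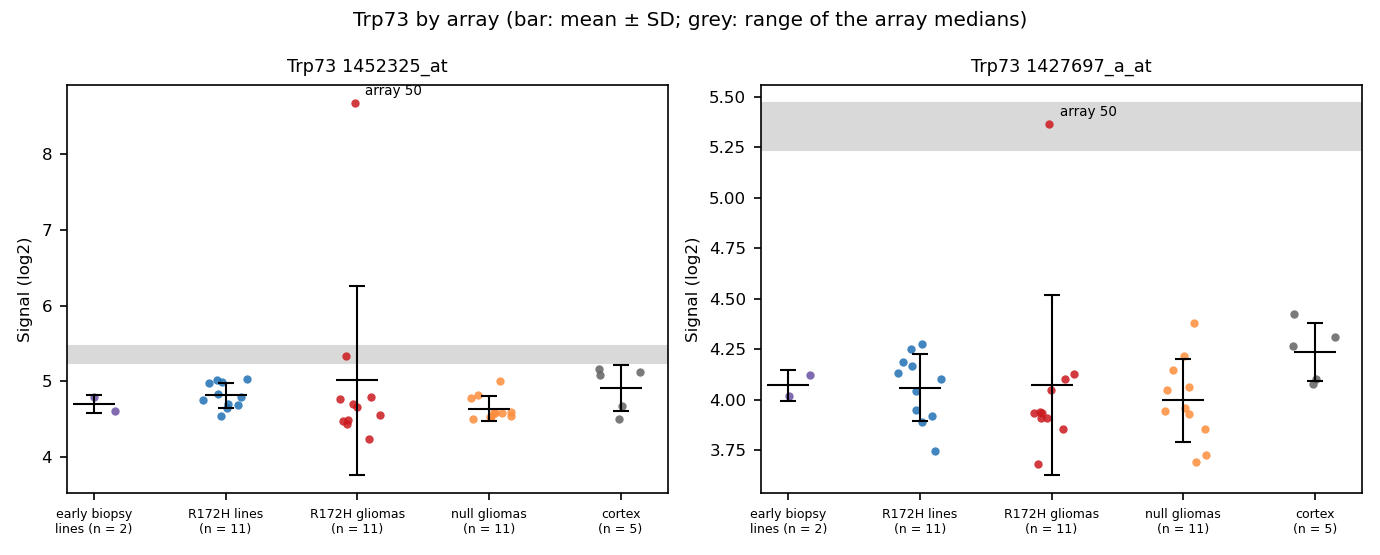
Signal (log2) of the 2 Trp73 probe sets on each of 40 arrays, 1 point per array, by group; bars are the mean ± SD and grey is the range of the array medians. The R172H glioma of array 50 reads 8.67 on 1452325_at and 5.36 on 1427697_a_at, above all other arrays on both.

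No Trp73 difference between groups passed. R172H gliomas differed from cortex by 0.10 on 1452325_at (95% interval -0.63 to 0.84), which turned to -0.26 without array 50 (adjusted p = 0.086), and by -0.16 on 1427697_a_at (-0.47 to 0.14). Without array 50 the difference on 1427697_a_at was -0.29 and passed (adjusted p = 0.0127). With array weights, which give less weight to deviating arrays, both glioma groups were lower than cortex on this probe set, at -0.24 in R172H (adjusted p = 0.0346) and -0.29 in null gliomas (adjusted p = 0.00812), at signals below the array median on 39 of 40 arrays.

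The sample with high Trp73 differed from other gliomas in its cell markers. Oligodendrocyte progenitor markers on array 50 had a median difference of -5.01 from the 21 other gliomas, and 6 of 8 were below all of them. Olig2, the lineage factor of oligodendrocyte progenitors, read 3.94 against 6.03 to 11.21 in the others, and Pdgfra, their growth factor receptor, 8.09 against 10.29 to 13.81; these examples were also chosen after their values had been seen. Mature oligodendrocyte markers were lower by a median of 4.53 and astrocyte markers by 1.85, and 5 of 14 microglia markers were below all other gliomas. Of 13 cell cycle markers 7 were above all others, with Mcm2, a replicative helicase subunit, at 11.64 against 7.36 to 10.98. Of the 28 measured p53 regulators and cofactors, a list described below, 7 were above and 1 below all other gliomas. The share of all probe sets beyond all other gliomas on array 50 was not counted, so these counts have no background beside them. The 13 neuron markers were mixed, with a median difference of 0.23. Stmn2, a growth-associated protein of young neurons, read 12.06 against a median of 6.43 in the other gliomas, Rbfox3, the NeuN antigen, 11.64 against 7.25, and Nefm, a neurofilament, 9.28 against 6.35, whereas Syt1 read 6.83 against 7.70 and Camk2a 5.59 against 6.39. Of the 5 Cajal-Retzius markers 4 were above the median of the other gliomas, with Calb2 at 12.50 against 6.32 and Reln at 8.57 against 7.25, and Ndnf, at 4.11, was below every other glioma. The median difference was 0.52 for this list and -0.04 for the 7 ependymal markers, and no marker of these 3 lists exceeded all other gliomas. The mean of the oligodendrocyte progenitor markers was 6.35 on array 50, and the next lowest gliomas were arrays 36 (7.29) and 41 (8.71). Trp73 on 1452325_at read 5.01 on array 36 and 4.53 on array 41. The part of these cell differences in the Trp73 signal was not tested.

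Over the 40 arrays, taking the brightest probe set of each gene, the genes most like Trp73 (Pearson r) were Crabp1, a retinoic acid binding protein, at 0.90, Neurod4, a neurogenic transcription factor, at 0.88, and Otp, a hypothalamic homeobox factor, at 0.87. All 3 were themselves highest on array 50. Crabp1 read 11.78 there against 2.94 to 5.34 elsewhere, Neurod4 8.11 against 2.81 to 5.60, and Otp 10.18 against 4.09 to 7.36. Without array 50 the correlations were 0.22, 0.40 and 0.37. For Mdm2 the most similar genes were Gm5141 (0.80), Zfp932 (0.80) and Zup1 (0.79), and for Mdm4 they were Pnn, a nuclear speckle protein (0.79), Aasdh (0.78) and Prpf39, a splicing factor (0.77). Without array 50 these 6 values were 0.77 to 0.80. Within groups, as deviations from group means, Gm5141 (0.76) remained first for Mdm2 and Pnn (0.82) for Mdm4. For Trp63 the highest value was 0.68, with Atg9a. The points share arrays, normalization and group differences, so these values only describe likeness.

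Genes next to Mdm2, Mdm4 and Trp53 on the chromosome were examined, and those next to Mdm2 and Mdm4 moved in both directions. Of the 3 measured genes on either side of Mdm2, Lyz1 (3.37), Nup107 (1.44) and Rap1b (1.13) were higher in R172H gliomas than in cortex, Cpm was lower (-1.30), and Cpsf6 (0.41) and Slc35e3 (0.10) did not pass. Around Mdm4, Ppp1r15b was higher (0.53), Cntn2 (-2.27), Lrrn2 (-1.18), Plekha6 (-1.60) and Gm19461 (-0.20) were lower and Nfasc (-0.95) did not pass. Around Trp53, Efnb3 (-2.19) and Atp1b2 (-1.50) were lower, and Wrap53, which overlaps the start of Trp53 on the other strand, differed by 0.54 without passing (adjusted p = 0.092). Sat2 (0.76), Dnah2 (0.15) and Shbg (-0.09) did not pass either. In null gliomas against cortex Efnb3 (-2.65) and Atp1b2 (-1.05) were also lower and Sat2 was higher (0.93, adjusted p = 0.0339). Wrap53 differed there by -0.06 (adjusted p = 0.88) and did not pass between genotypes (0.60, adjusted p = 0.23). Lyz1 was lower in lines than in R172H gliomas by 7.83. The macrophage marker Lyz2 averaged 7.58 in cortex, 11.18 in R172H gliomas and 4.96 in lines. The part of cell composition in the Lyz1 difference was not tested, nor was it tested whether the Lyz1 probe set also reads Lyz2.

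The pathway around the members was read from a list of 26 p53 targets, 25 of them measured by a probe set of their own, taking the brightest probe set of each gene. In null gliomas against cortex 6 targets were higher and 5 lower, and 20.2% and 21.8% of 18193 genes were. In R172H gliomas against cortex 5 were higher and 4 lower, with 21.3% and 24.1% of all genes. In lines against cortex 8 were higher and 5 lower, with 25.3% and 24.2%. The median difference of the targets was -0.02, -0.01 and -0.02 in these comparisons, beside -0.03, -0.03 and 0.02 over all genes. None of the 25 passed between R172H and null gliomas or between early biopsy and end-stage lines.

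Targets moved in both directions. Cdkn1a, which encodes the cell cycle inhibitor p21, read 8.64 to 11.28 in null gliomas (median 10.06) against 7.51 to 8.93 in cortex, a difference of 1.56 ± 0.46 (adjusted p = 0.00699). In R172H gliomas it read 7.85 to 10.64, a difference of 1.02 from cortex that did not pass (adjusted p = 0.073). Gadd45a, a stress-induced growth arrest gene, was higher by 1.63 in null gliomas (adjusted p = 0.000547) and by 1.46 in lines (adjusted p = 0.00122) than in cortex. Perp, a death effector and desmosome component, was lower in gliomas of both genotypes and in lines. It read 3.24 to 6.36 in R172H gliomas and 3.41 to 5.37 in null gliomas, against 5.58 to 6.88 in cortex, with differences of -1.99 and -2.02 (adjusted p = 5.22e-06 and 4.27e-06). Zmat3, an RNA-binding p53 target, was lower in all null gliomas (7.85 to 9.53) than in any cortex (9.62 to 9.90), by 1.17 (adjusted p = 5.03e-05). All R172H gliomas (8.48 to 9.50) and lines (7.87 to 9.51) also lay below every cortex.

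In R172H gliomas, Ddit4, an inhibitor of mTOR signalling, had a median of 10.55 against 9.52 in cortex, where no array exceeded 9.97, a difference of 1.06, and Trp53inp1 and the stress gene Sesn2 were higher by 1.02 and 0.98. In lines against cortex the differences of largest size were those of Perp (-2.57), Btg2 (2.39), Ddit4 (2.09) and Gadd45a (1.46). In early biopsy lines against end-stage lines the median difference of the targets was -0.41, beside -0.04 over all genes, and Cdkn1a read 7.79 and 8.98 against 8.06 to 10.84, with no target past the test.

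In lines against R172H gliomas 2 of 25 targets were higher and 0 lower, beside 6.54% and 5.97% of all genes. Btg2, an antiproliferative gene, read 9.85 to 12.27 in lines against 7.93 to 10.41 in R172H gliomas, a difference of 1.69 (adjusted p = 0.000351). Ddit4 was higher by 1.03 (adjusted p = 0.0038).

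Regulators and cofactors of p53 formed a second list, of 30 genes with 28 measured. In null gliomas against cortex 12 were higher and 6 lower, beside 20.2% and 21.8% of all genes. In R172H gliomas 13 were higher and 3 lower, beside 21.3% and 24.1%, and in lines 14 and 4, beside 25.3% and 24.2%. The median differences were 0.21, 0.47 and 0.50, against -0.03, -0.03 and 0.02 over all genes. Cdkn2a had the largest difference of the list in each of the 3 comparisons. It read 11.66 to 12.46 in lines, 7.08 to 12.35 in R172H gliomas (median 11.72) and 9.46 to 12.53 in null gliomas (median 11.53), against 3.83 to 4.62 in cortex, with no overlap between any glioma or line and the cortices. The differences from cortex were 7.94, 6.99 and 7.15 (adjusted p = 1.21e-14, 9.23e-13 and 6.21e-13). The annotation used does not say whether its probe set reads p19Arf, p16Ink4a or both. Chek1, the checkpoint kinase of replicating cells, was higher than in cortex by 4.06 in lines, 3.96 in R172H gliomas and 3.61 in null gliomas, and Chek2, the kinase that acts on p53 after double-strand breaks, by 2.81, 2.40 and 2.03. The cell cycle marker means of these groups, given above, moved with them, and their part in these differences was not tested.

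Ppp1r13b, which encodes the p53 cofactor ASPP1, fell. It read 4.53 to 8.14 in lines, 6.16 to 10.09 in R172H gliomas and 6.30 to 9.13 in null gliomas, against 9.80 to 10.17 in cortex. The differences from cortex were -4.08, -2.53 and -2.21, and that of lines from R172H gliomas was -1.55 (adjusted p = 0.0084). The neuron marker means were also lowest in lines and highest in cortex, and their part was not tested. Ppp1r13l, which encodes the inhibitory relative iASPP, was higher in lines (6.93 to 8.17) than in R172H gliomas (6.20 to 7.34) by 0.99 (adjusted p = 5.92e-06). These were the 2 regulators that passed between lines and R172H gliomas, 1 in each direction, and none of the 28 passed between R172H and null gliomas or between early biopsy and end-stage lines.

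**Figure D5:**
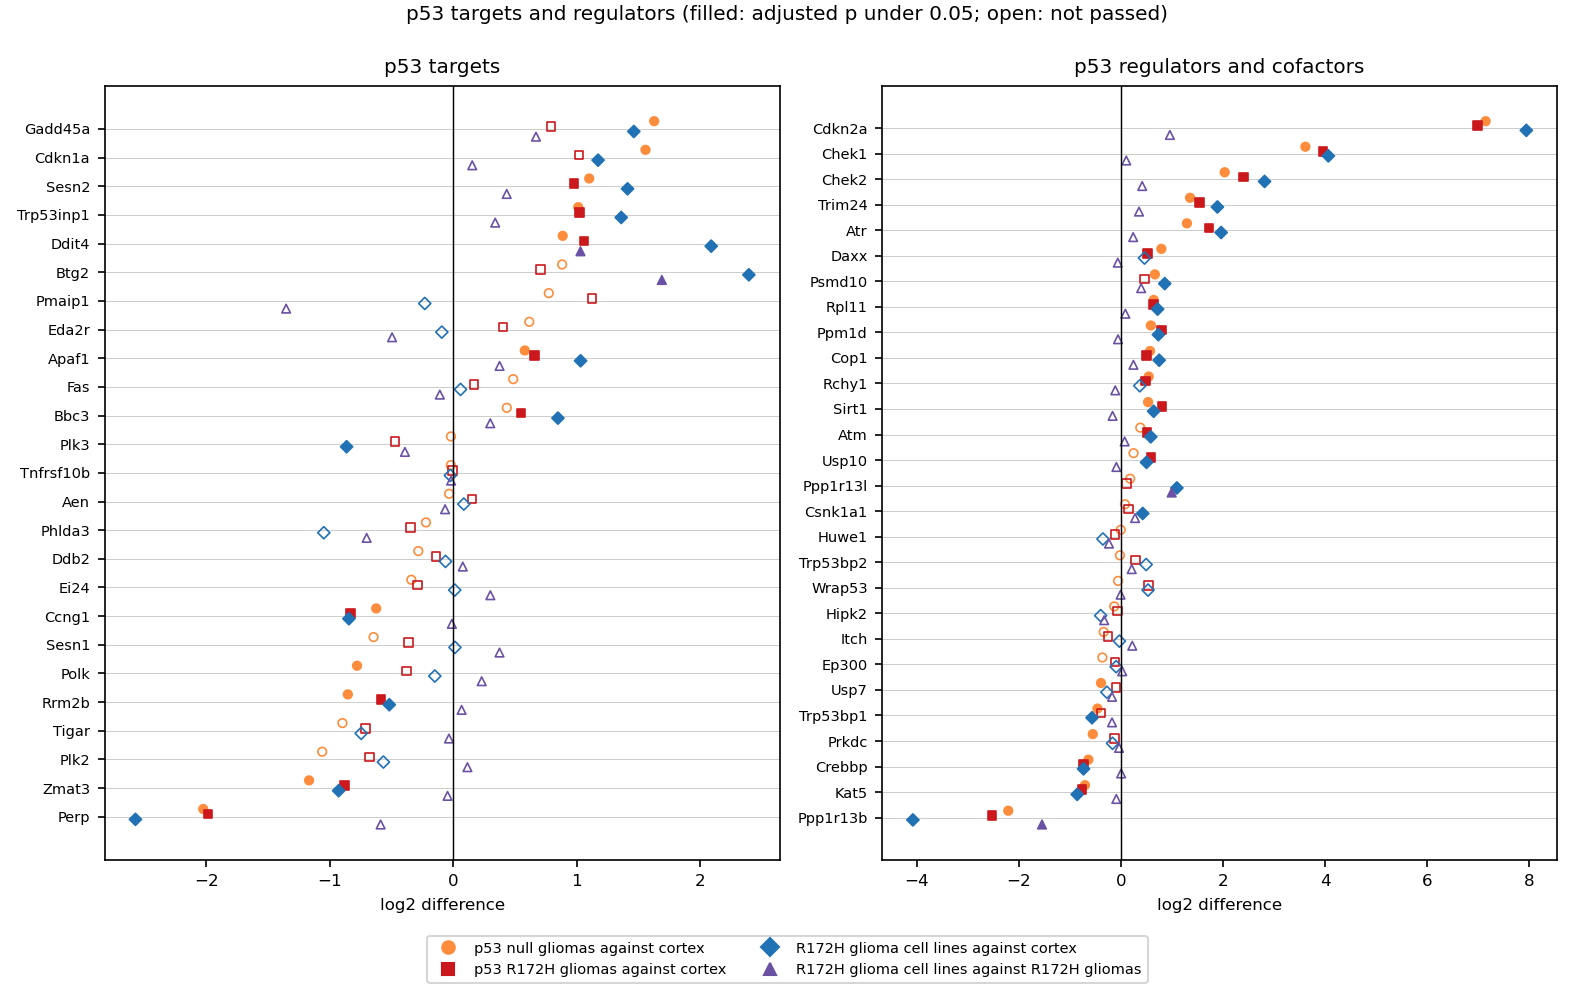
Log2 difference of the 25 measured p53 targets and 28 measured regulators and cofactors in 4 comparisons, the first-named group minus the second, 1 point per gene and comparison; filled points have an adjusted p under 0.05. Cdkn2a, at 6.99 to 7.94 over cortex, lies far to the right, and Perp and Ppp1r13b lie to the left in gliomas and lines.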

How the data were processed

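Total RNA of 40 samples was hybridised to Affymetrix mouse genome arrays (IVT Express kit). The authors normalized between arrays by quantiles after background correction and summarised probe sets by robust multi-array averaging, and the deposited values were read as log2, since no source used here states the log base. The table holds 45101 probe sets, and 64 array controls were left out. Probe sets were named by the platform annotation. The members and gene lists were chosen with earlier results of these data known. Named genes are all member probe sets and, of each list, up to 4 per comparison with the largest differences that passed. limma 3.58.1 (R 4.3.3) fitted 1 model with 5 groups to all 40 arrays, with Benjamini-Hochberg adjustment over 45037 probe sets and a threshold of 0.05; counts per gene use the same adjusted p. The fit was tested on simulated data. Relations across gliomas used 100000 permutations, or exact enumeration under 10 arrays. Alternatives were the model, a filter on dim probe sets, cyclic loess, array weights, moderation, 1 probe set per gene, the kind of cortex and leaving out arrays. The number of arrays limits the precision. Some listed genes are not reported here. Replicate arrays of a group correlated at 0.853 or more.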

Additional observations from a re-analysis of the deposited data

Results flagged for a closer look

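A test for gaps within groups flagged 1 result. Mdm4 on 1453982_at read 3.308 (log2) in the Cre-positive cortex of array 30, whose gap to the next cortex took 0.762 of the range of the 5 cortices. Of 13 groups tested for such a gap, 1 had one, and chance gives about 1 in 20. The member probe sets form more groups than these 13, so not every group was tested. Trp73 1452325_at on array 50, at 8.67 against 4.24 to 5.33 in the other R172H gliomas, is not among the flagged results. The signal of Mdm4 1453982_at lies below the array median on every array. Without the cortex of array 30 the limma difference between R172H gliomas and cortex on this Mdm4 probe set was 0.23 and did not pass (adjusted p = 0.125).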

How the results depend on the processing

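No paired analysis was possible because, although the methods pair each R172H glioma with a line, the labels do not say which line came from which glioma, and replicate numbers are names in accession order. No difference that passed changed direction under any alternative run; those that did are given at the end. Of the 13 member probe sets, 4 passed in null gliomas against cortex; this became 2 with the filter on dim probe sets, with 1 probe set per gene and with Cre-positive cortices only, and 1 with Cre-negative cortices only. In R172H gliomas against cortex the 4 became 2 with the dim filter, cyclic loess, 1 probe set per gene, Cre-positive or Cre-negative cortices only, and 7 with array weights. In lines against R172H gliomas the 1 became 0 with only the compared groups, the dim filter, cyclic loess, or trend and robust moderation. In lines against cortex the 5 became 2 with cyclic loess or 1 probe set per gene, 1 with Cre-positive or Cre-negative cortices only, and 3 to 5 on leaving out each cortex in turn. Leaving out each cortex gave 3 to 4 in null gliomas and 3 to 4 in R172H gliomas. With 1 probe set per gene only 4 members remain, and with part of the cortices fewer samples enter; other causes were not tested. The counts of 0 between R172H and null gliomas and between early biopsy and end-stage lines held under each alternative run. Chosen after seeing the data, leaving out arrays 38, 45 and 58 gave 5 in null and 4 in R172H gliomas against cortex, and leaving out arrays 36, 41 and 50, low in oligodendrocyte progenitor markers, gave 4 and 5. Trp73 on 1452325_at in R172H gliomas against cortex turned to -0.18 with array weights and -0.26 without array 50. In lines against R172H gliomas, Trp73 turned to 0.071 (1427697_a_at) and 0.056 (1452325_at) with array weights and to 0.12 and 0.17 without array 50. Trp73 1427697_a_at turned to -0.052 in R172H against null gliomas without array 50, and 1452325_at to 0.024 in lines against Cre-negative cortices. Mdm4 1460542_s_at in lines against R172H gliomas turned to -0.037 with cyclic loess and -0.011 with array weights. In early biopsy against end-stage lines, Trp73 1427697_a_at turned to -0.020 with cyclic loess, and leaving out either early biopsy line gave -0.042 to 0.064 there, -0.84 to 0.21 for Mdm4 1419558_at and -0.31 to 0.032 for Mdm2 1427718_a_at. Of 28 further differences, all of dim probe sets that passed under no setting, 17 changed direction under at least 1 alternative, between -0.34 and 0.21.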
